A study of Arabidopsis thaliana with 54 samples.

Results

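Rosettes of the copper-uptake mutant spl7 that had spent 3 days without copper were compared with rosettes of Col-0, the Arabidopsis thaliana wild type, in the same solution. The comparison used 6 of the 54 RNA-seq libraries of the series, picked by sample title, and all 33610 gene identifiers in their count files. The 3 spl7 libraries came from the insertion line SALK_109908c, a lone mutant line, pretreated at 2.5 µM copper (called a rescue in the labels) and then held at 25 µM iron and 0 µM copper. The 3 Col-0 libraries came from plants pretreated at 0.1 µM copper and then held in that same copper-free solution. All plants grew in hydroponic solution with 25 µM iron beforehand. Genotype and pretreatment changed together, so they cannot be told apart within these 6 libraries. Beside them stand rosettes from 3 control groups of 3 libraries each, all at 25 µM iron and 0.5 µM copper: spl7 pretreated at 2.5 µM copper, spl7 pretreated at 0.1 µM copper (titled Ex, unlike the other samples), and Col-0 pretreated at 0.1 µM copper. Levels of FSD1 are also given for rosettes held at 0 µM iron with 0.5 or 0 µM copper, and levels of CSD2 for those with 0.5 µM copper. There too spl7 was pretreated at 2.5 µM copper and Col-0 at 0.1 µM.

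SPL7 is a transcription factor of the SBP family that switches on the copper deficiency response of plants. It binds promoters holding GTAC cores and raises copper uptake and delivery, the iron superoxide dismutase FSD1 and several microRNA genes. Those microRNAs, miR398 and miR408 among them, remove transcripts of copper proteins such as the copper/zinc superoxide dismutases CSD1 and CSD2, so that scarce copper is kept for plastocyanin. A plant with working SPL7 therefore swaps copper superoxide dismutases for the iron enzyme when copper runs short.

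The 27 rosette libraries held 11.69 to 20.06 M counts, and the 6 compared held 13.9 to 18.13 M. The spl7 libraries without copper were the least alike of any rosette group: each library's mean correlation of log2 CPM (counts scaled to the library total) with its 2 group mates was 0.9706 to 0.9765, against 0.9801 to 0.9901 in the other 8 groups. The TMM factors of spl7 replicates 1 to 3 were 0.943, 0.865 and 1.02. No 2 replicates agreed within sampling noise, with a chi-square over its degrees of freedom of 12.3 to 25.8 between spl7 replicates and 2.86 to 11.4 elsewhere. Nothing in the labels shows that replicates came from separate containers, so part of the scatter behind the p values may be technical. In the main fit that scatter was estimated over all 27 rosette libraries together, tighter groups included. Its p values therefore do not measure the spread of the 6 compared libraries alone, and the shared estimate draws on groups less scattered than spl7 without copper. The leaf marker genes RBCS1A and LHCB2.1 were abundant in every library (11557 to 17145 CPM of RBCS1A), and the root hair marker EXPA7 was at or near 0, which matches the rosette label.

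SPL7 itself was lower in spl7 rosettes but not absent. It stood at 9.89, 11 and 11.2 CPM in spl7 rosettes and at 26.8, 25.1 and 25.3 CPM in Col-0 rosettes, and the groups did not overlap. The log2 change was -1.26 ± 0.12 (standard error), a 2.4-fold difference, with an adjusted p of 1.51e-06. All adjusted p values are from edgeR's quasi-likelihood test with Benjamini-Hochberg adjustment over the 20015 genes tested, and a gene was called where the adjusted p was below 0.05. The count does not show whether a whole transcript was made. In bulk tissue, fewer cells of a type and less RNA per cell cannot be told apart, here or for any gene that follows.

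The genes known to be switched on by SPL7 are shown with the promoters of the 4 members that fell, because the GTAC core lies in each of them several times over. The windows are the 250 bases before the annotated start, read from RefSeq TAIR10.1 and written along the gene's strand, with GTAC in capitals.
FSD1, chr4:12886696-12886945, minus strand: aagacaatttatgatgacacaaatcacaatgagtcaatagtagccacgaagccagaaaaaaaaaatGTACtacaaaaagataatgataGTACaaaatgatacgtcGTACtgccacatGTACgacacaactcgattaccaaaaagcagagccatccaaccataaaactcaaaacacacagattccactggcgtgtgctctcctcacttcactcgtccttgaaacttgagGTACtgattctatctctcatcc
CCH, chr3:20864623-20864872, minus strand: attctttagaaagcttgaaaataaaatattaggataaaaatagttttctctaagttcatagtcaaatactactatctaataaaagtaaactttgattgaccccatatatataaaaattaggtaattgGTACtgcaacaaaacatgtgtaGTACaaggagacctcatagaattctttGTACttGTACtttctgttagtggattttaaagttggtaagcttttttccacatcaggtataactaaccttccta
YSL2, chr5:8323645-8323894, plus strand: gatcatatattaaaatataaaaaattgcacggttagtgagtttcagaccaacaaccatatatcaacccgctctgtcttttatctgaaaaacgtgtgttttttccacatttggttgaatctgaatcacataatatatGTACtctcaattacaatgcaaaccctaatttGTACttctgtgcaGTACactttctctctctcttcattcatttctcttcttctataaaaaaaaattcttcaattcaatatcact
COPT2, chr3:17268625-17268874, plus strand: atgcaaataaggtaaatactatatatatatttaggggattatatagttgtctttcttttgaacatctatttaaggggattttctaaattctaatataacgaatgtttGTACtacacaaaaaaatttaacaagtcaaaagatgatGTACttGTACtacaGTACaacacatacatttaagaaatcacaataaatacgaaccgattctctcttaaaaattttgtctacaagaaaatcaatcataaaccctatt
GTAC reads the same on both strands, and it occurred 5 times in the FSD1 window, 4 times in CCH, 3 times in YSL2 and 4 times in COPT2. Over the 27443 protein-coding promoters of the same length, 34% held GTAC at least once, 7.57% at least 2 times, 1.38% at least 3 times and 0.262% at least 4 times. Of the 11 genes listed for the copper deficiency response, 5 held it, each at least 3 times, the fifth being ZIP2. Among all tested genes, 10% of the 50 tested genes with 4 or more cores were lower in spl7 and 6% higher, against 7.51% lower and 7.31% higher among 12717 tested genes with none. The 10% is 5 genes, among them FSD1, CCH and COPT2 shown above. The shares did not move steadily with the number of cores: 7.14% were lower and 6.72% higher with 1 core, 5.92% and 8.83% with 2, and 8.97% and 7.62% with 3. A match is a description of letters, not of binding.

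FSD1, the plastid iron superoxide dismutase, showed the largest change of any called gene. It had 55, 3 and 4 reads (3.75, 0.25 and 0.217 CPM) in spl7 rosettes, against 8122, 9791 and 7783 reads (547, 591 and 551 CPM) in Col-0 rosettes. All spl7 libraries were far below all Col-0 libraries, and spl7 replicate 1 held most of the few spl7 reads. The log2 change was -8.66 ± 0.45, a 405-fold difference (edgeR adjusted p = 5.39e-12), and -11.22 without spl7 replicate 1. FSD1 was as low in the copper-fed spl7 controls, at 0.301 ± 0.15 CPM after 2.5 µM and 0.425 ± 0.188 CPM after 0.1 µM copper, while copper-fed Col-0 held 222 ± 69.7 CPM (SD, n = 3 each).

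CCH, a small copper chaperone of the ATX1 type, measured 50.8, 66 and 60.2 CPM in spl7 rosettes and 172, 179 and 174 CPM in Col-0 rosettes. Groups were well apart, with a log2 change of -1.57 ± 0.08, or 2.97-fold (edgeR adjusted p = 5.39e-12). YSL2, a transporter for metal chelates with nicotianamine, measured 0.886, 0.999 and 1.19 CPM in spl7 and 7.2, 7.36 and 6.23 CPM in Col-0. It was 6.65-fold lower in spl7, a log2 change of -2.73 ± 0.26 (edgeR adjusted p = 8.67e-07), again with no overlap. COPT2, a copper uptake transporter of the plasma membrane, was scarce in both, at 0.341, 0.333 and 0.434 CPM in spl7 and 1.28, 1.27 and 2.19 CPM in Col-0. Its log2 change was -2.04 ± 0.46 (edgeR adjusted p = 0.00711). The COPT2 call was lost when the 6 compared libraries were fitted alone (adjusted p = 0.166), while those of FSD1, CCH and YSL2 were kept.

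Of the 11 listed copper deficiency genes 8 could be tested, of which 4 fell in spl7 and 1 rose, beside 14.4% of all tested genes called (7.18% higher and 7.18% lower). The list's median log2 change was -0.65, against 0.013 for all genes. The member that rose was COPT1, another copper uptake transporter, at 47.8, 56.2 and 46.8 CPM in spl7 and 38.8, 36.2 and 40.4 CPM in Col-0 (log2 change 0.38 ± 0.09). This call was lost without spl7 replicate 2 (edgeR adjusted p = 0.0873) and with the 6 libraries alone (0.183). Not called were the transporter COPT6 (log2 change 0.28) and the metal reductases FRO3 (0.49) and FRO4 (0.44). FRO5, ZIP2 and the bHLH factor CITF1 had too few reads in rosettes to be tested.

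**Figure D1:**
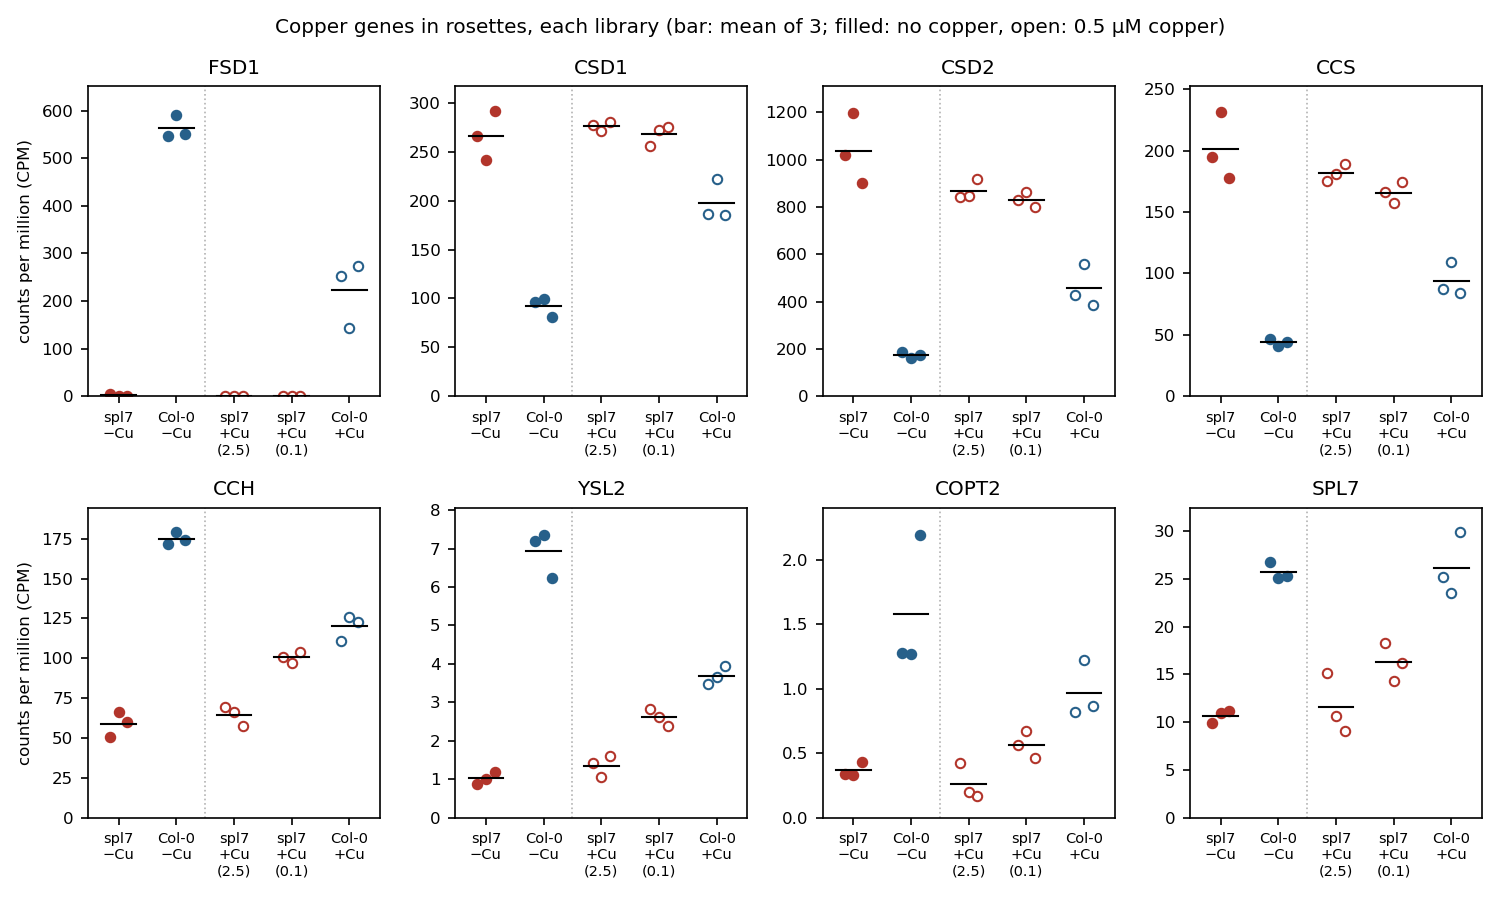
Each point is 1 rosette library, in CPM (vertical axis) by group (horizontal axis), with the copper-free groups left of the dotted line and the copper-fed groups right of it. Numbers in brackets are the pretreatment in µM copper. Bars are means of 3. FSD1 lies near 0 in all 3 spl7 groups, and CSD1, CSD2 and CCS are high in spl7 with or without copper and lowest in Col-0 without copper.

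The microRNA arm of the response is shown by its sequences, with the best-pairing stretch in each of 4 listed targets that rose. Targets that were not called were not searched, and such a search always returns a best stretch. The sites therefore cannot show whether these 4 differ from other transcripts. The mature microRNAs, from RefSeq TAIR10.1, have their seed (bases 2 to 8) in capitals.
miR398a-3p, chr2:1041012-1041032, plus strand: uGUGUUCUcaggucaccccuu
miR398b-3p, chr5:4691107-4691127, plus strand: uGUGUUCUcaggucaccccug
miR398c-3p, chr5:4694778-4694798, plus strand: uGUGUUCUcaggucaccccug
miR408-3p, chr2:19319933-19319953, plus strand: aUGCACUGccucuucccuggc
The 3 miR398 forms share 1 seed, and b and c are identical. In the sites of 4 called targets, capitals mark bases that pair with the microRNA by Watson-Crick rules, miR398b-3p for the superoxide dismutase genes and CCS and miR408-3p for ARPN.
CSD1, 5′ UTR, across the junction of exons 1 and 2, chr1:2827177-2827685, plus strand: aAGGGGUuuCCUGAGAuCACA
CSD2, coding sequence, exon 4 of 8, chr2:12015572-12015593, plus strand: ugcGGGUGACCUGgGaAACAuA
CCS, coding sequence, exon 6 of 6, chr1:4267521-4267542, minus strand: CAuuGGGaGACCUGgGAACACu
ARPN, coding sequence, exon 1 of 2, chr2:827696-827717, minus strand: GCCaAGGGAAGAGGCAGUGCAU
The CSD1 site paired at 17 bases, CSD2 at 16, CCS at 17 and ARPN at 21. CSD2, CCS and ARPN each needed 1 unpaired extra base, and CSD2 had 4 further G:U pairs.

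CSD2, the plastid copper/zinc superoxide dismutase, was the most abundant of these targets and rose the most. It stood at 1018, 1197 and 899 CPM in spl7 rosettes and at 187, 162 and 172 CPM in Col-0 rosettes. The lowest spl7 library was above the highest Col-0 library by several fold, with a log2 change of 2.58 ± 0.13, or 5.98-fold (edgeR adjusted p = 5.39e-12). CCS, the chaperone that loads copper into these enzymes, measured 195, 231 and 178 CPM in spl7 and 46.9, 40.9 and 43.8 CPM in Col-0. CCS was 4.59-fold higher in spl7 (log2 change 2.20 ± 0.10, edgeR adjusted p = 1.62e-12), with no overlap. CSD1, the cytosolic enzyme, measured 266, 242 and 292 CPM in spl7 and 96.6, 99 and 81 CPM in Col-0. CSD1 was 2.89-fold higher in spl7 (log2 change 1.53 ± 0.08, edgeR adjusted p = 9.02e-12), and its groups did not overlap.

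ARPN, the plantacyanin gene and a target of miR408, measured 13.2, 12.2 and 16.7 CPM in spl7 and 7.47, 10.7 and 8.92 CPM in Col-0. The groups did not overlap but lay close, with a log2 change of 0.63 ± 0.15 (edgeR adjusted p = 0.00753). This call was lost with the 6 libraries alone (0.184) and without Col-0 replicate 1, where the log2 change was 0.51. Of 13 listed targets 11 were tested, 4 rose and 0 fell, and the median log2 change was 0.22. The other 7 were not called, among them the laccase LAC17 (0.22) and the uclacyanin UCC2 (-0.06). COX5B-1, a cytochrome c oxidase subunit gene, was another of these, with a log2 change of -0.02 to 0.08 over 11 alternative settings and a call in 0 of them. The microRNA genes themselves were not tested, since 0 reads fell on any of the 7 in spl7 rosettes and the most in Col-0 were the 2, 2 and 3 reads on MIR398C.

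Of 13 chaperones, copper pumps and plastocyanin genes, 1 rose and 1 fell, with a median log2 change of 0.03, which is near the 14.4% called among all genes. CSD3, the third copper/zinc superoxide dismutase, which is not in the target list, rose by a log2 change of 0.32 ± 0.07, at 29.5, 33.7 and 33.6 CPM in spl7 and 25.8, 26.3 and 25.6 CPM in Col-0. The chaperone ATX1 fell by 0.24 on the log2 scale. The plastocyanin genes PETE1 (log2 change 0.10) and PETE2 (0.15) were not called. PETE2 was at 3501, 3834 and 2841 CPM in spl7 and 2863, 2893 and 3434 CPM in Col-0, so its groups overlapped. Of the 4 metallothionein genes tested, MT2A rose (0.40) and MT2B fell (-0.29). None of these calls held with the 6 libraries alone.

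Whether the gap between genotypes depended on the copper supply was tested as the spl7 response to copper removal minus the Col-0 response. That difference was called for 6 of 20015 genes (0.03%), 5 higher (0.025%) and 1 lower (0.005%), with 2025 at an unadjusted p below 0.05. CSD2 averaged 1038 ± 150.2 CPM in spl7 without copper and 868 ± 44.4 CPM in spl7 with copper, but 174 ± 12.2 CPM in Col-0 without copper and 457 ± 88.8 CPM in Col-0 with copper (SD, n = 3 each). The mean was lower without copper in Col-0 and not in spl7, and the responses differed by 1.65 on the log2 scale (edgeR adjusted p = 3.41e-05). CCS (1.24) and CSD1 (1.05) differed in the same way. CCH differed in the other direction (-0.67, edgeR adjusted p = 0.0196), at 59 ± 7.67 CPM without and 64.4 ± 5.98 CPM with copper in spl7 and at 175 ± 3.55 CPM without and 120 ± 7.75 CPM with copper in Col-0.

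The last 2 genes of this set were clock-linked rather than copper genes. COL9, a CONSTANS-like factor, averaged 53.2 ± 11.2 CPM in spl7 without copper and 19.8 ± 2.31 CPM in spl7 with copper, while Col-0 held 43.1 ± 1.9 and 36.1 ± 0.359 CPM without and with copper. COR28, a cold-responsive clock repressor, averaged 26.8 ± 8.17 and 6.75 ± 1.6 CPM without and with copper in spl7 and 16.1 ± 0.0503 and 13.8 ± 1.34 CPM in Col-0 (SD, n = 3 each). Both were higher without copper in spl7, by more than in Col-0, with differences of 1.17 and 1.76 on the log2 scale. The calls for CSD1, CSD2 and CCS held in 17 of 17 alternative settings, those for COL9, COR28 and CCH in 8, 11 and 12.

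CSD2 and FSD1 were also read in rosettes held without iron, where genotype is again tied to pretreatment (2.5 µM copper in spl7, 0.1 µM in Col-0). Without iron but with copper, CSD2 was at 567, 700.3 and 648 CPM in spl7 and 725, 794 and 949 CPM in Col-0, so every spl7 library was below every Col-0 library there. FSD1 in Col-0 was 4.69, 3.27 and 6.83 CPM without iron and 70, 148 and 116 CPM without both metals, all below its 547 to 591 CPM without copper alone. In spl7 rosettes FSD1 was at or below 0.351 CPM in each of those 6 iron-free libraries.

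Over all genes, 2874 of 20015 were called between spl7 and Col-0 rosettes without copper, 1437 higher and 1437 lower. Most changes were small: the median size of a called change was 0.41 on the log2 scale, and 62 genes rose (0.31%) and 64 fell (0.32%) at least 2-fold. The 3 spl7 and 3 Col-0 libraries did not overlap for 5381 genes (26.9%). The count depended on which libraries were fitted. With the 6 compared libraries alone, 10 of 18959 genes tested were called (0.0527%), 3 higher and 7 lower, and 3555 had an unadjusted p below 0.05. Without spl7 replicate 2 the count was 530, of which 522 were among the 2874, and without Col-0 replicate 1 it was 552.

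**Figure D2:**
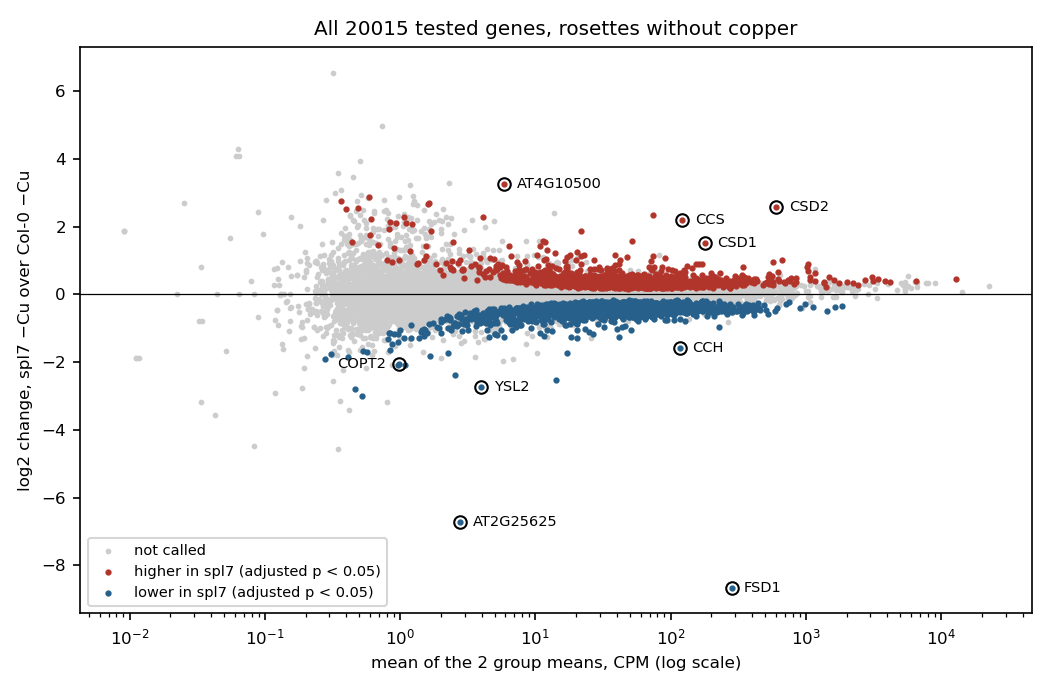
Each of the 20015 tested genes is placed by its level (horizontal axis, mean of both group means in CPM, log scale) and by its log2 change, spl7 over Col-0 without copper (vertical axis). Red points were called higher and blue points called lower in spl7 (adjusted p below 0.05), and grey points were not called. FSD1 at -8.66 and AT2G25625 at -6.73 stand far below every other called gene, and most called genes lie within 1 log2 unit of 0.

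**Figure D3:**
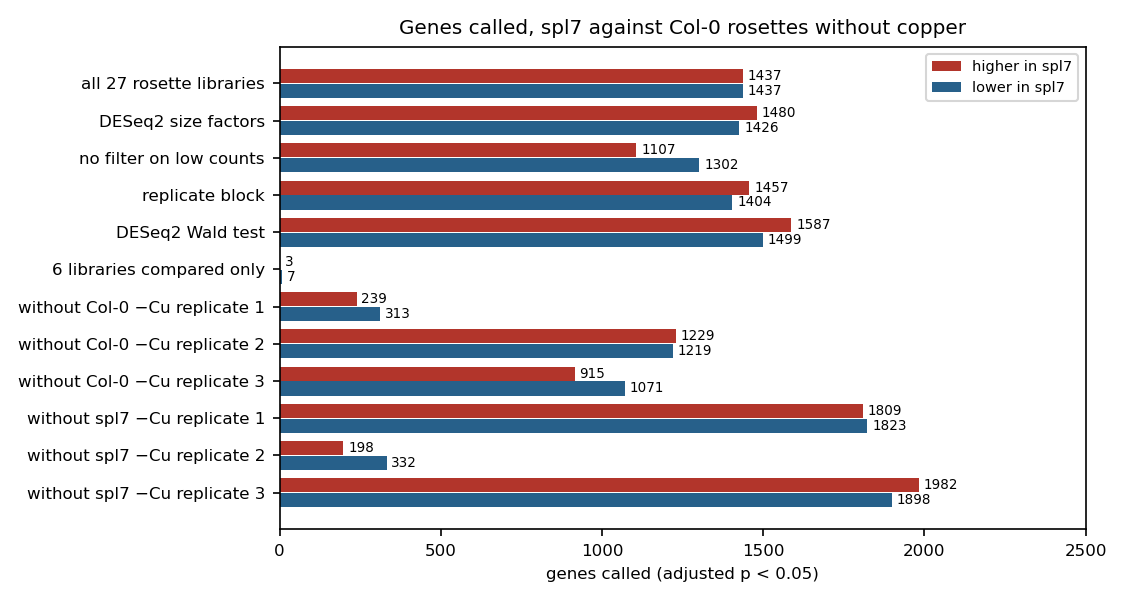
Bars give the number of genes called higher (red) and lower (blue) in spl7 without copper, starting at 0, for the fit to 27 rosette libraries (top) and for each alternative. The count was 3 higher and 7 lower with the 6 compared libraries alone, and 198 higher and 332 lower without spl7 replicate 2.

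The 10 genes called even with the 6 libraries alone were CSD1, CSD2 and CCS, which rose, and FSD1, CCH, YSL2, SPL7, AT2G25625, AT3G19680 and ERD5, which fell; AT3G19680 and ERD5 are named because of this result, after their values were seen. AT2G25625, annotated in RefSeq as a histone deacetylase-like protein, had 1, 0 and 1 reads in spl7 rosettes, against 67, 110 and 77 reads in Col-0 rosettes. Summed over libraries and scaled to their totals, Col-0 held 126 times the spl7 level (95% counting interval 34.5 to 1040). Unlike FSD1 it was not near 0 in copper-fed spl7, at 1.97, 1.26 and 0.67 CPM after 2.5 µM and 2.2, 2.69 and 6.53 CPM after 0.1 µM copper, while copper-fed Col-0 held 3.8, 2.21 and 3.56 CPM. Neither control comparison called it (edgeR adjusted p = 0.175 and 0.708). The difference between the genotypes' responses to copper removal was not called for it either. Its 250-base promoter window held GTAC 1 time.

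ERD5 encodes proline dehydrogenase, which begins proline breakdown, and measured 12.5, 10.2 and 12.4 CPM in spl7 and 33.5, 23.3 and 29.9 CPM in Col-0. It was 2.45-fold lower in spl7 with no overlap (log2 change -1.29 ± 0.19, edgeR adjusted p = 0.000593). P5CS1, the stress-induced enzyme of proline synthesis, was higher, at 543, 911 and 799 CPM in spl7 and 362, 460.4 and 336 CPM in Col-0 (log2 change 0.96 ± 0.16, edgeR adjusted p = 0.00238, and 0.175 with the 6 libraries alone). P5CS2 (0.15) and P5CR (-0.24), other steps of proline synthesis, were not called. AT5G38710, a second proline dehydrogenase gene, had a log2 change of 0.06 to 0.36 over 11 alternative settings, opposite in sign to ERD5. ALDH12A1, the next step of proline breakdown, had -0.20 to -0.06, and both were called in 0 of the 11. P5CS2, P5CR, AT5G38710 and ALDH12A1 were looked up after the values of ERD5 were seen. In the control rosettes ERD5 and P5CS1 moved the same way as without copper, ERD5 by -0.96 after 2.5 µM and -2.91 after 0.1 µM copper and P5CS1 by 1.1 and 2.78. AT3G19680, a gene of unknown role, was at 16.4, 16.8 and 16.1 CPM in spl7 and 35.5, 41.2 and 34.8 CPM in Col-0 (-1.18 ± 0.25), without overlap.

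Genes beside SPL7 and FSD1 on the chromosome were looked up after these values were seen. The gene on one side of SPL7, Cpn60alpha2, a plastid chaperonin subunit, averaged 7.97 CPM in spl7 and 12.1 CPM in Col-0 (log2 change -0.58, edgeR adjusted p = 0.0148). On the other side AT5G18840, annotated as a major facilitator transporter, averaged 0.391 CPM in spl7 and 1.78 CPM in Col-0 (-2.09, adjusted p = 0.00662). The next 2 genes on each side were not called. Next to FSD1 the metacaspase MC2 was lower (-1.47, adjusted p = 0.041, and 0.177 without spl7 replicate 2), at 0.409, 0.333 and 0.597 CPM in spl7 and 1.01, 1.51 and 1.35 CPM in Col-0. What part the insertion has in these neighbours was not tested.

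The 15 largest called rises whose groups did not overlap, a rule that leaves out PR2 (2.35), began with AT4G10500, a 2-oxoglutarate-dependent oxygenase, at 10.8, 18.6 and 2.55 CPM in spl7 and 0.471, 1.75 and 0.92 CPM in Col-0 (log2 change 3.27 ± 0.86, edgeR adjusted p = 0.0151). CYP71A13, a cytochrome P450 of camalexin synthesis, followed at 2.66 ± 0.85, with 2.52, 0.666 and 5.15 CPM in spl7 and 0.202, 0.664 and 0.496 CPM in Col-0. In both genes the lowest spl7 library came close to the highest Col-0 library. BCB, the blue copper-binding protein, rose to 49.6, 32.5 and 20.7 CPM in spl7, against 6.6, 13.2 and 7.93 CPM in Col-0 (1.87 ± 0.39, adjusted p = 0.00516). LBD1 (2.28), LOG5, a cytokinin-activating enzyme (2.15), AT4G27790 (1.93), AT1G52800 (1.87), the NAC factor NAC019 (1.58), AT4G33467 (1.54), AT3G24750 (1.46) and the receptor-like kinase CRK8 (1.43) were also higher. The remaining 4 were CSD2, CCS, PR5 and CSD1.

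The largest falls after FSD1, AT2G25625 and YSL2 were TCH4, a xyloglucan-modifying wall enzyme (-2.53), and MAF5, a MADS-box relative of FLC (-2.38 ± 0.46). MAF5 was at 1.09, 0.0832 and 1.14 CPM in spl7 and 2.76, 3.92 and 6.3 CPM in Col-0, without overlap. It was also lower in both spl7 controls, by -3.31 after 2.5 µM and -3.61 after 0.1 µM copper. EXO, a cell-expansion gene, measured 11.3, 5.24 and 7.11 CPM in spl7 and 25.2, 32.7 and 21 CPM in Col-0 (-1.73 ± 0.33, edgeR adjusted p = 0.00341). The inositol oxygenase MIOX2 (-1.82), AT1G50040 (-1.74), AT1G58460 (-1.65), AT5G03360 (-1.39) and AT1G21220.1 (-1.31) completed the 15 with AT5G18840, COPT2, CCH and MC2. Of the 15 rises and 15 falls, 8 and 8 were still called without spl7 replicate 2, 7 and 8 without Col-0 replicate 1, and 3 and 4 with the 6 libraries alone.

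Groups of stress, light and hormone genes were counted next; none of their members was called with the 6 libraries alone, and in many lists the count was lower without spl7 replicate 2. Of 28 photosystem and antenna genes 6 rose and 0 fell, and 26 had a positive log2 change, with a median of 0.34. For list counts without copper, here and below, the background was 7.18% of tested genes higher and 7.18% lower. LHCB2.1, an antenna protein of photosystem II that shares reads with a near-identical copy, was at 3638, 4804 and 3444 CPM in spl7 and 2837, 2705 and 3036 CPM in Col-0 (0.47 ± 0.10, edgeR adjusted p = 0.00634). All spl7 libraries were above all Col-0 libraries, and replicate 2 was the highest. PSBR (0.41), PSBQ2 (0.41) and LHCA1 (0.40) rose too. The number called ranged from 0 without spl7 replicate 2 to 22 without spl7 replicate 3.

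Of 18 clock genes 7 rose and 0 fell, with a median log2 change of 0.35, and the number called was 1 without spl7 replicate 2. The morning gene PRR9 was at 14.5, 18.1 and 19.1 CPM in spl7 and 9.09, 10.7 and 8.92 CPM in Col-0 (0.84 ± 0.12, edgeR adjusted p = 0.000521). It was the clock gene still called without that library (0.00417). COR28 (0.73), PRR5 (0.59) and FKF1 (0.55) rose here, yet in copper-fed rosettes COR28 was lower in spl7 after either pretreatment (-1.04 and -2.82). No time of harvest was given in the sources used here.

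Of 15 desiccation and abscisic acid genes 5 rose and 0 fell, with a median log2 change of 0.59. COR15B, a cold- and drought-induced plastid protein, was at 739, 1128 and 810 CPM in spl7 and 411, 478 and 431 CPM in Col-0 (1.02 ± 0.18, edgeR adjusted p = 0.00301), without overlap. P5CS1 (0.96), COR15A (0.90) and CBF3, a cold-response activator (0.77), rose as well. The count was 2 without spl7 replicate 2 and also 2 without Col-0 replicate 1.

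Of 19 jasmonate genes 4 rose and 0 fell, 18 had a positive log2 change and the median was 0.46. They were AOC1 (1.01) and LOX2 (0.80), enzymes of jasmonate synthesis, and the response genes VSP2 (0.91) and CORI3 (0.85). LOX2 was at 1293, 1185 and 1385 CPM in spl7 and 524, 718 and 972 CPM in Col-0, without overlap. Of 16 salicylate genes 3 rose and 0 fell, with a median of 0.36: PR2 (2.35), PR5 (1.58) and the lipase-like regulator PAD4 (0.35). PR2, a glucanase of pathogen defence, was at 119, 225 and 30.5 CPM in spl7 and 13.6, 39.6 and 19.2 CPM in Col-0, so spl7 replicate 3 overlapped Col-0. Without spl7 replicate 2, 0 genes of either list were called, and likewise without Col-0 replicate 1.

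**Figure D4:**
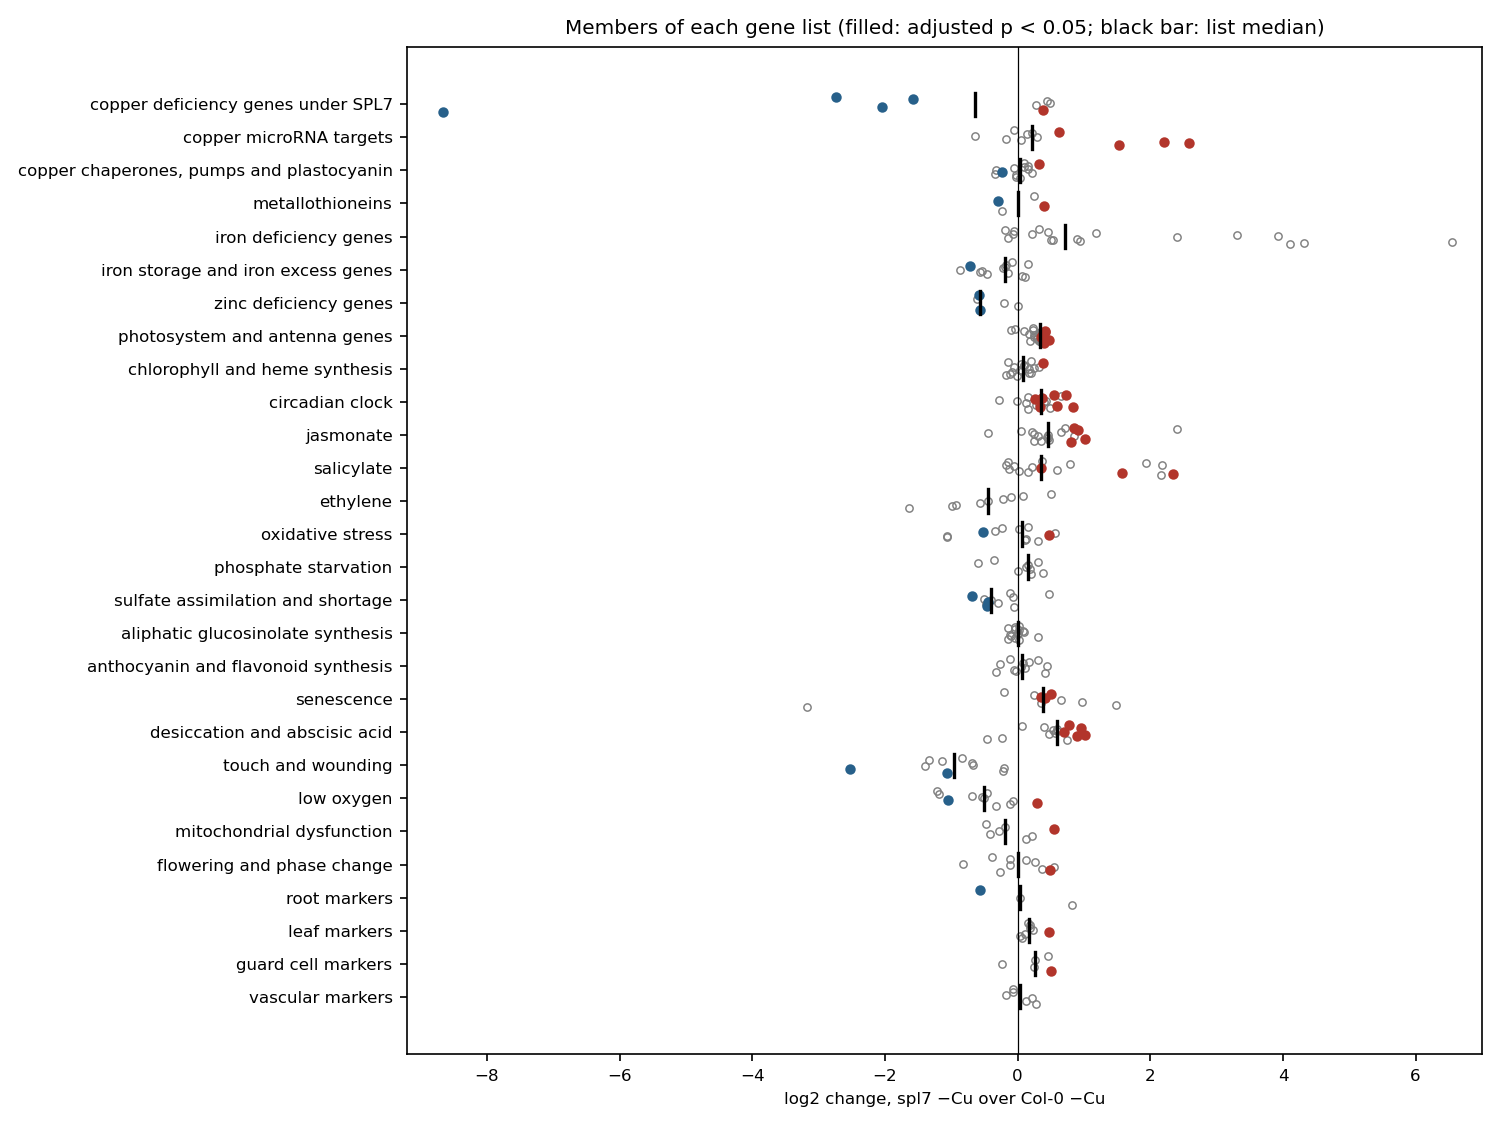
Each point is the log2 change, spl7 over Col-0 without copper (horizontal axis), of a tested gene in the list named at left. Filled points were called (red higher, blue lower), open points were not, and black bars are list medians. The copper deficiency list reaches furthest to the left with FSD1 at -8.66, and the iron deficiency list holds far-right points of which 0 were called.

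Of 10 touch and wounding genes, a sign of handling, 2 were called lower in spl7, TCH4 and TCH2, and the median log2 change was -0.95. The other 8 were not called; all 8 had a negative log2 change, but without Col-0 replicate 2 those of TCH3 (0.47), WRKY33 (0.28), MYB15 (0.45), ERF6 (0.09) and ERF5 (0.04) were positive. TCH4 was at 7.3, 3.5 and 2.06 CPM in spl7 and 10, 48.5 and 13.7 CPM in Col-0, and Col-0 replicate 2 was the highest for it and for TCH2, a calmodulin-like protein (-1.07). The summed level of the list was 66.7 to 158 CPM in spl7 and 90 to 276 CPM in Col-0. The number called ranged from 0 to 2 as libraries were left out in turn. In copper-fed rosettes 6 of the 10 were lower in spl7 after 2.5 µM copper, beside 0.819% of all tested genes. After 0.1 µM it was 9 of the 10, beside 21.6% of all tested genes. What part handling has in these genes was not tested.

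Among the other nutrient lists, 3 of 11 sulfate genes fell, LSU2 (-0.68), APR2 (-0.46) and SULTR2;1 (-0.44), with a median log2 change of -0.40, and 0 were called without spl7 replicate 2. Of 5 tested zinc deficiency genes the transporter genes HMA2 (-0.58) and ZIP1 (-0.56) fell. HMA2 was at 27.3, 33.4 and 30.4 CPM in spl7 and 49.5, 41.5 and 45.2 CPM in Col-0, without overlap. Without spl7 replicate 2 the zinc count was 1 and without spl7 replicate 3 it was 4. Of 9 phosphate starvation genes 0 were called by edgeR or by DESeq2 and 1 had an unadjusted p below 0.05 (median 0.16).

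The remaining lists of cell functions had at most 3 calls each. Of 18 chlorophyll and heme synthesis genes 1 rose, CAO, the chlorophyllide a oxygenase (0.39), with a median of 0.09. Of 10 senescence genes 3 chlorophyll breakdown genes rose, PPH (0.51), SGR1 (0.42) and PAO (0.36). Of 12 oxidative stress genes AOX1A, the alternative oxidase, rose (0.48) and FSD2, another iron superoxide dismutase, fell (-0.52). FSD2 was at 23.1, 16.8 and 22.1 CPM in spl7 and 33, 27.4 and 29.3 CPM in Col-0. The low oxygen list of 11 had PDC2 higher (0.29) and SUS4 lower (-1.05), the mitochondrial list of 7 had ANAC013 higher (0.55), and the flowering list of 10 had SOC1 higher (0.49). Of 9 ethylene genes, 15 aliphatic glucosinolate genes and 12 anthocyanin genes, 0 were called by edgeR or by DESeq2, with 4, 0 and 0 at an unadjusted p below 0.05 and medians of -0.45, 0 and 0.07.

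Cell markers were called about as often as all genes (14.4%). Of 8 leaf markers LHCB2.1 alone was called, and the list's median was 0.17. Of 5 guard cell markers MYB60 rose (0.50), of 6 vascular markers 0 were called by edgeR or DESeq2 (1 at an unadjusted p below 0.05), and of 8 root markers 3 could be tested and PHO1 fell (-0.57). Their summed levels overlapped between groups for leaf and guard cell genes (54.7 to 69.6 CPM in spl7 and 54.8 to 56.4 CPM in Col-0 for guard cells). For root markers the sums did not overlap, at 41.2 to 44.7 CPM in spl7 and 47.3 to 49.8 CPM in Col-0.

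Iron deficiency genes were not called, and replicate 3 of spl7 stood apart in them. Of 18 genes 0 were called by edgeR and 1 by DESeq2, 1 had an unadjusted p below 0.05, and the median log2 change was 0.72. ORG1, an iron deficiency gene of leaves, was at 56.7, 69.9 and 211 CPM in spl7 and 45.3, 49.4 and 55.3 CPM in Col-0 (edgeR adjusted p = 0.126). IMA3, a peptide gene that signals iron need, was at 0.136, 0.416 and 11.9 CPM in spl7 and 0.202, 0 and 1.27 CPM in Col-0 (adjusted p = 0.181). In both genes spl7 replicate 3 stood apart from replicates 1 and 2. For IMA2 the 52 spl7 reads, nearly all from replicate 3, against 3 Col-0 reads gave a ratio of 17.5 (95% counting interval 5.67 to 87.6); it was not called, and without spl7 replicate 3 the log2 change turned to -0.70 for IMA2 and -0.80 for IMA3.

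Iron storage genes were lowest in replicate 3 of both genotypes. The ferritin FER1 was at 530.2, 633 and 51.2 CPM in spl7 and 384, 641 and 94.4 CPM in Col-0. FER3 was at 165, 129 and 37.7 CPM in spl7 and 157, 221 and 76.8 CPM in Col-0. FER4 followed with 106, 79.8 and 27.8 CPM in spl7 and 80.9, 101 and 53.9 CPM in Col-0. The spl7 and Col-0 libraries overlapped for all 3 ferritins, and none was called. Of 13 tested genes of iron storage and excess 1 fell, YSL3, a transporter that loads metals from leaves to seeds, at 13.4, 17.7 and 11.7 CPM in spl7 and 21.9, 23.7 and 23.7 CPM in Col-0 (-0.71 ± 0.14, edgeR adjusted p = 0.00394). It was lower in the controls too (-0.65 after 2.5 µM and -0.67 after 0.1 µM copper).

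**Figure D5:**
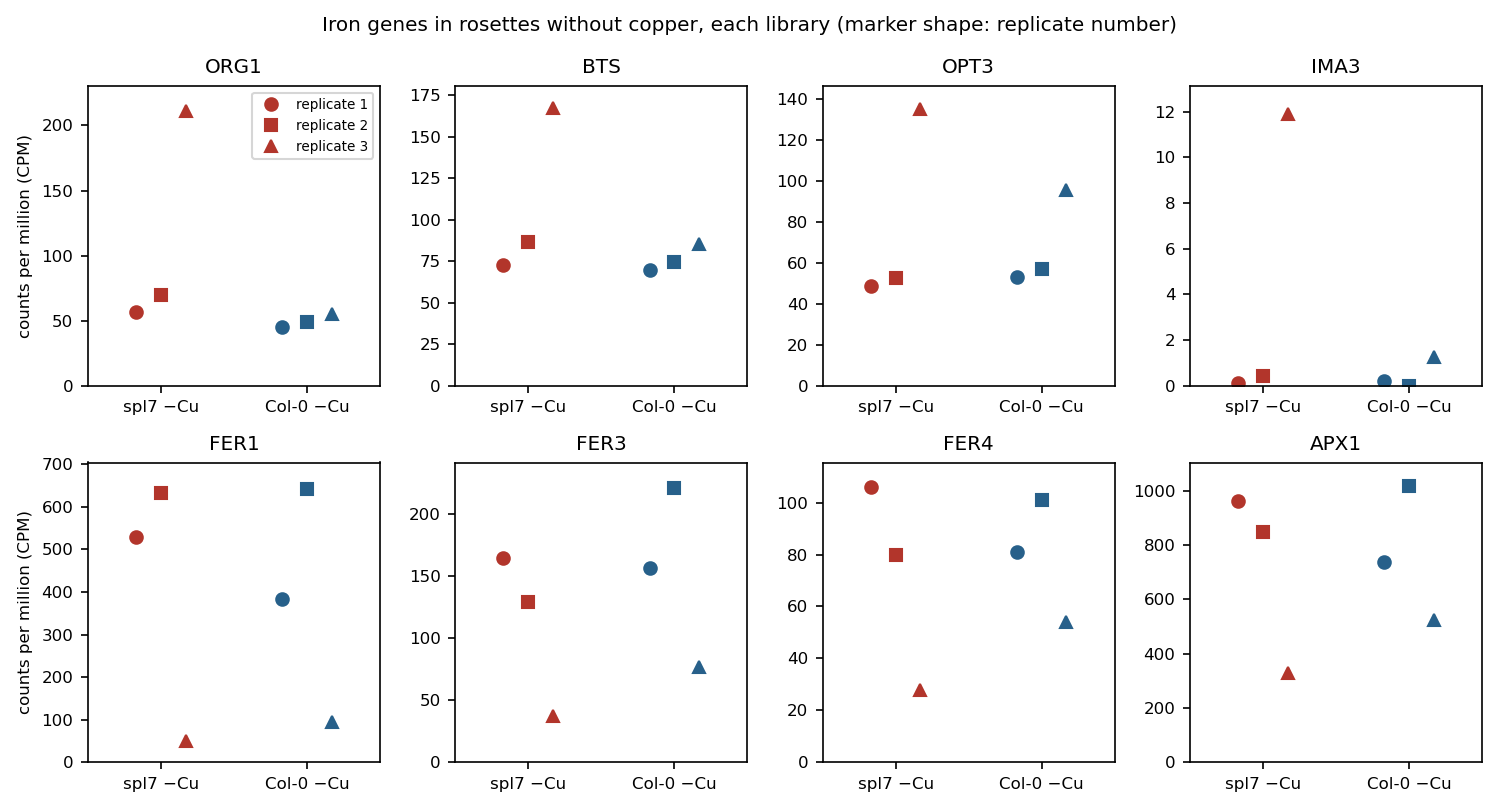
Levels in CPM (vertical axis) of 8 iron genes in the 3 spl7 libraries (red) and the 3 Col-0 libraries (blue) without copper, with marker shape giving the replicate number. Replicate 3 of spl7 is highest for ORG1, BTS, OPT3 and IMA3, and replicate 3 is lowest for the ferritins and APX1 in both genotypes.

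The same genotypes in full copper show which differences were also called with copper present. A gene called only without copper is not shown to depend on copper by that. The direct test, the difference between responses, called 6 of 20015 genes. With 2.5 µM pretreatment, spl7 controls differed from Col-0 controls in 469 of 20015 genes (2.34%), 305 higher (1.52%) and 164 lower (0.819%). The 469 became 83 without spl7 control replicate 1. With the 0.1 µM pretreatment that Col-0 also had, they differed in 8453 genes (42.2%), 4131 higher (20.6%) and 4322 lower (21.6%); both comparisons share the Col-0 controls, and the second also sets the Ex libraries against the others. Neither shares a library with the copper-free comparison, but all come from the same fit and share its estimate of each gene's spread, so their calls are not separate tests. Of its 2874 genes 175 were also called after 2.5 µM, which is 6.09% of them and 37.3% of the 469, and 174 of the 175 had the same direction. After 0.1 µM, 1877 were also called, 65.3% of the 2874 and 22.2% of the 8453, and 1775 of these had the same direction.

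The copper-free spl7 rosettes also shared genes with low-copper pretreatment within spl7. Controls of spl7 after 0.1 µM differed from those after 2.5 µM in 4786 genes (23.9%). Of these 1097 were also called between spl7 and Col-0 without copper, 22.9% of the 4786 and 38.2% of the 2874, with 999 in the same direction. Single lists showed both patterns. Of 12 anthocyanin genes 12 were higher in spl7 than in Col-0 controls after 0.1 µM copper, with a median log2 change of 2.62. Of 15 glucosinolate genes 14 were higher there, and 20.6% of all tested genes were higher in that comparison. Without copper 0 of either list were called. CSD2 was higher in spl7 in all 3 comparisons, by 2.58 without copper, 0.93 in controls after 2.5 µM and 0.86 in controls after 0.1 µM. YSL2 was lower by -2.73, -1.46 and -0.50, the last not called (edgeR adjusted p = 0.0966).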

How the data were processed

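Rosette RNA of 27 libraries in 9 groups of 3 was used, and the 27 root libraries were not used. The unit is read counts per gene, deposited unscaled by the authors, whole numbers for 33610 identifiers, of which 28932 match a RefSeq locus tag. Per the submitters' processing notes, Bowtie, HTSeq and TAIR10 were used, with no versions given. The strand setting is not given in the sources used here, and near-identical copies (LHCB, RBCS, AOC and IMA genes) share reads.

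Counts were analysed with edgeR 4.0.16 (R 4.3.3, limma 3.58.1): filterByExpr (minimum count 10, minimum total 15) kept 20015 genes, TMM scaled the libraries (factors 0.865 to 1.16), and glmQLFit took 9 groups with 18 residual degrees of freedom (common biological coefficient of variation 0.104). A call needed a p value below 0.05 after Benjamini-Hochberg adjustment. CPM (counts scaled by the TMM-adjusted total) are given as mean ± SD, and each log2 change carries a standard error derived from its F statistic. The script was tested on simulated data. Alternatives were DESeq2 1.42.0 (size factors and Wald test), no filter, a replicate block, the 6 compared libraries alone and each library left out; counts of list members under them were added after seeing the data. The correlations of deviations between same-numbered spl7 and Col-0 libraries were -0.15, 0 and 0, so numbers were not treated as pairs.

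The members, the 29 gene lists and the tests were chosen with earlier results of these data known. Named were SPL7, the copper and iron lists, up to 4 called members with the largest change in any other list, the 15 largest called rises and falls without overlap and with a mean of at least 1 CPM in a group, and the 5 largest per direction of the difference between responses. Promoters, microRNAs and sites were read from RefSeq TAIR10.1, taking the first-named transcript of a gene. Counting intervals cover counting error only.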

Additional observations from a re-analysis of the deposited data

Results flagged for a closer look

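The response to copper removal differed between the genotypes for 6 genes by a test of the difference itself, spl7 response minus Col-0 response on the log2 scale (edgeR, Benjamini-Hochberg adjusted p). The superoxide dismutases and their chaperone had the lowest adjusted p values, with CSD2 at 1.65 (adjusted p = 3.41e-05), CCS at 1.24 (3.57e-05) and CSD1 at 1.05 (3.41e-05). COR28 at 1.76 (0.0167) and COL9 at 1.17 (0.0304) had higher means without copper than with it, and more so in spl7 than in Col-0. CCH at -0.67 (0.0196) had a higher mean without copper in Col-0 and not in spl7. Genotype is tied to pretreatment in all 4 groups of this test, so neither can be told apart from the other.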

How the results depend on the processing

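The number of genes called between spl7 and Col-0 without copper, 2874, was 2906 with DESeq2 size factors, 2409 without a filter and 3086 with the DESeq2 Wald test, but 10 with the 6 libraries alone and 530 to 3880 as each library was left out (530 without spl7 replicate 2, 552 without Col-0 replicate 1). With the replicate block it was 2861. The replicate numbers were not treated as pairs, and the labels give no batch. Iron storage genes were lowest in replicate 3 of both genotypes, and whether same-numbered libraries shared a batch was not tested. Of 81 named genes called, SPL7 not counted, 81 stayed called with DESeq2 size factors, 75 without a filter and 79 with the block. Without spl7 replicate 2 the number was 28, without Col-0 replicate 1 it was 33, and of 79 tested 9 stayed called with the 6 libraries alone. None (0) reversed. For copper-fed spl7 after 2.5 µM against Col-0 the count of 469 became 303 with the compared libraries alone and 83 to 428 as each library was left out (83 without spl7 control replicate 1, 222 without Col-0 control replicate 1 and 283 without spl7 control replicate 2). The difference between responses gave 69 genes with DESeq2 and 3 to 27 as libraries were left out. The pretreatment count of 4786 was 3080 to 4395 as each library was left out (lowest without spl7 control replicate 2). DESeq2 called 15 photosystem, 7 jasmonate and 5 senescence genes, against 6, 4 and 3 by edgeR. The cause of each was not tested. The SPL7 log2 change stayed between -1.30 and -1.22. With 3 libraries a group and unlike spl7 replicates, small changes of single genes are uncertain.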
